A study of Mus musculus with 27 samples.

Results

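Slc7a11 and 9 further genes of the amino acid stress response were examined in whole fetal brain. Slc7a11 was chosen by its measured change in these data, a rise in the early phase (d12 to d15) in the C57BL/6J libraries, while Atf4, Ddit3, Trib3, Slc3a2, Chac1, Sesn2, Asns, Psat1 and Phgdh were named for their place in the ATF4 pathway. These are 10 of the 55416 genes in the table of read counts. The symbols matched 11 rows, because a second row with the symbol Ddit3 held 0 reads in all libraries and was set aside. All 10 genes passed the filter on low counts in each of the 18 comparisons.

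Total RNA was taken from brains of female mouse fetuses of 3 strains at gestational d12, d15 and d17, with 3 libraries in each of the 9 groups and 27 in all. The strains were AKR/J, C57BL/6J and Cav1-null (B6.Cg-Cav1tm1Mls/J, a line without functional caveolin-1 that is congenic to C57BL/6J). No treatment is named for any group. Neither litter nor dam was stated for the replicates, so p-values measure the spread between these libraries only. The Cav1 deletion is not restricted to 1 tissue, and whole brain mixes all of its cell types. In bulk RNA, fewer cells of a type and less RNA per cell cannot be told apart.

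Cells read a shortage of amino acids, or unfolded protein in the endoplasmic reticulum, through kinases that phosphorylate the initiation factor eIF2α. Most translation then slows while that of Atf4 rises, and the transcription factor ATF4 turns on genes for amino acid uptake and synthesis. Slc7a11 encodes xCT, which pairs with the heavy chain 4F2hc encoded by Slc3a2 and exchanges extracellular cystine for glutamate. Cystine feeds the synthesis of glutathione, and in the brain the glutamate released by xCT reaches extracellular receptors. ATF4 and its partners bind composite elements in promoters, and since ATF4 is controlled in large part by translation, its transcript need not follow its activity.

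The composite element TGATGNAA was searched on both strands in the promoter windows of RefSeq (GRCm38.p6, 250 bases before to 50 after each start). All 10 genes had a window, and 4 of them held the letters, against 3.97% of all 32851 windows. The windows of Slc3a2, Atf4, Ddit3, Sesn2, Psat1 and Phgdh did not hold them. The matches are shown because the element is the one ATF4 is known to bind, and capitals mark the match on either strand.
Slc7a11, chr3:50443614-50443713, minus strand: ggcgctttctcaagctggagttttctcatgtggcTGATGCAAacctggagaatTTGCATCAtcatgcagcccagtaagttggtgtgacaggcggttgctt
Chac1, chr2:119351038-119351067, plus strand: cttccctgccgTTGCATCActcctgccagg
Trib3, chr2:152344028-152344057, minus strand: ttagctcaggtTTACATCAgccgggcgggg
Asns, chr6:7693214-7693243, minus strand: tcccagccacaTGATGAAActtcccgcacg
Slc7a11 had 2 matches facing each other, beginning 66 and 47 bases before the start, and the other 3 genes had 1 match each.

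Checks of the labels were made before any comparison. Libraries held between 26363697 and 39759702 reads on genes. Cav1 lay at 0.0 to 0.503 CPM (counts relative to library size, scaled by TMM) in the Cav1-null libraries and at 9.42 to 41.1 CPM in the others. All 10 neural markers were detected in every group, with summed levels of 2750 to 8260 CPM. Erythroid markers, globin genes among them, reached 34100 to 201000 CPM in sum on AKR/J d12 and at most 18200 CPM in the other groups. The C57BL/6J libraries were not uniform. Among 81 genes at least 4-fold higher in every AKR/J library than in any Cav1-null library, 77 had C57BL/6J libraries on both sides of the midpoint between them. Each C57BL/6J library lay on the AKR/J side of that midpoint for 24.7% to 54.3% of these genes, with different shares in replicates of the same day. A library past the midpoint need not reach the AKR/J range. For 17 genes that were higher in Cav1-null by the same rule, 5.88% to 23.5% lay on the AKR/J side, and 7 of the 17 had C57BL/6J libraries on both sides. The 81 genes, chosen after their values were seen, included 68 pseudogenes and 10 protein-coding genes. The part of this mixture in the results on Slc7a11 was not tested. Markers of meninges and connective tissue ranged from 382 to 5220 CPM among the C57BL/6J d15 libraries, where Slc7a11 ranged from 122 to 128 CPM.

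**Figure D1:**
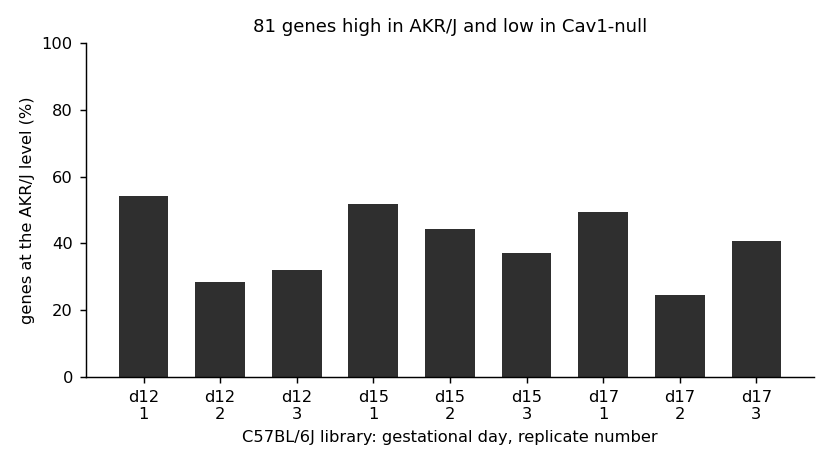
Share of the 81 strain-separating genes (%) at which each of the 9 C57BL/6J libraries lay on the AKR/J side of the midpoint, by gestational day and replicate number. The axis words "at the AKR/J level" mean past that midpoint. Bars span 24.7% (d17 replicate 2) to 54.3% (d12 replicate 1), and no C57BL/6J library lay at 0.

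Slc7a11 (ENSMUSG00000027737, chr3:49846975-50398070 on the minus strand, GRCm39) stood at 2 levels. In 13 libraries it exceeded 50 CPM and in 14 it did not, with 25.7 CPM the highest value below and 69.3 CPM the lowest above. On d12 the 3 AKR/J libraries measured 88.2, 69.3 and 117 CPM, the C57BL/6J libraries 13.2, 17.3 and 8.86 CPM, and the Cav1-null libraries 12.8, 10.4 and 13.2 CPM. Only AKR/J was high on that day, and the C57BL/6J and Cav1-null libraries overlapped.

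On d15 Slc7a11 reached 150, 125 and 201 CPM in AKR/J and 128, 122 and 125 CPM in C57BL/6J, while Cav1-null stayed at 10.8, 11.1 and 12.4 CPM. All C57BL/6J libraries had thus moved to the AKR/J level. On d17 the values were 176, 147 and 140 CPM in AKR/J, 21.6, 19.4 and 107 CPM in C57BL/6J, and 25.7, 16.7 and 17.9 CPM in Cav1-null. A single C57BL/6J library, replicate 3, was high on d17, and the other two lay among the Cav1-null values.

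Ordered by mean, the groups ran from AKR/J d15 (159 ± 38.7 CPM, SD, n = 3) and AKR/J d17 (154 ± 19.3) through C57BL/6J d15 (125 ± 2.98), AKR/J d12 (91.5 ± 24) and C57BL/6J d17 (49.3 ± 49.9) to Cav1-null d17 (20.1 ± 4.9), C57BL/6J d12 (13.1 ± 4.23), Cav1-null d12 (12.1 ± 1.5) and Cav1-null d15 (11.4 ± 0.85). Neighbours in this order had overlapping libraries, except that C57BL/6J d15 lay wholly below AKR/J d17 and wholly above AKR/J d12.

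**Figure D2:**
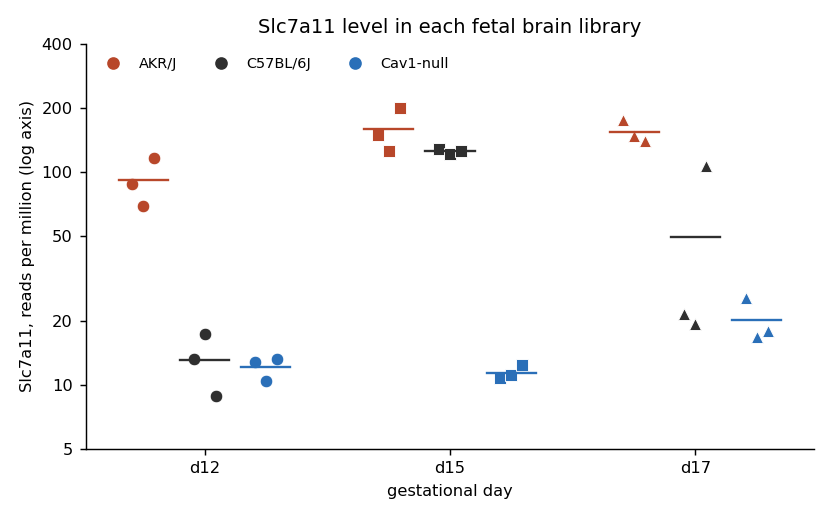
Slc7a11 level (CPM, log axis) in each of the 27 libraries by gestational day and strain, with points for libraries and lines for group means. All AKR/J libraries, the 3 C57BL/6J d15 libraries and C57BL/6J d17 replicate 3 lie at or above 69.3 CPM, and the other 14 lie at or below 25.7 CPM.

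The early-phase values of Slc7a11 chose it and are given with no test. Its log2 change from d12 to d15 was 3.22 ± 0.23 (SE) in C57BL/6J, a 9.31-fold rise, with a range of 3.01 to 3.46 when libraries were left out in turn. The same change was 0.76 ± 0.24 in AKR/J, where no d15 library overlapped d12, and -0.07 ± 0.16 in Cav1-null. The AKR/J mean went from 91.5 to 159 CPM, and its log2 change ranged from 0.56 to 0.98 when libraries were left out in turn. Under the other settings the AKR/J change ranged from 0.71 to 1.26, beside 3.18 to 3.26 in C57BL/6J and -0.09 to -0.05 in Cav1-null. By library size alone the AKR/J means were 70.2 CPM on d12 and 168 CPM on d15.

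The late phase shares the d15 libraries that chose the gene, so its values too are given with no test. In Cav1-null the log2 change from d15 to d17 was 0.85 ± 0.16, with a range of 0.61 to 0.98 when libraries were left out in turn, and d17 did not overlap d15. In AKR/J it was 0.00 ± 0.15. In C57BL/6J it was -1.31 ± 0.61, and -2.57 without d17 replicate 3. The late change differed from that in C57BL/6J by 1.34 ± 0.69 for AKR/J and by 2.12 ± 0.70 for Cav1-null, and without C57BL/6J d17 replicate 3 by 2.59 and 3.4. Between AKR/J and Cav1-null it differed by -0.86 ± 0.24.

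The main fits of the d17 strain comparisons use no library of the early phase. On d17 Slc7a11 was 1.66 ± 0.59 higher in AKR/J than in C57BL/6J on the log2 scale (adjusted p = 0.191). When libraries were left out in turn the difference ranged from 1.3 to 2.9, with an adjusted p of up to 0.457. The 2.9 (adjusted p = 0.00188) came without C57BL/6J replicate 3, the C57BL/6J library nearest to AKR/J. With no library left out the difference passed with no filter (1.69, adjusted p = 0.038) and with 1 model of all libraries (1.68, adjusted p = 0.026). That model also holds the d12 and d15 libraries that chose the gene. Cav1-null differed from C57BL/6J by -1.24 ± 0.61 (adjusted p = 0.575), and by -0.01 without that replicate. Both differences moved most when replicate 3 was left out.

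Reads over splice junctions gave a second view of the gene. The deposited junction table held 2 introns of Slc7a11, both between coding exons of transcript ENSMUST00000029297. They lie between exons 1 and 2 (chr3:50393365-50397433) and between exons 6 and 7 (chr3:50338617-50372436), and the latter is also listed under another gene and stands at 0 in 8 libraries. The authors had removed junctions on read support, so a 0 may stand for removed reads. The joined exon sequences are shown because reads across them are spliced in the way of xCT, with capitals for the downstream exon.
Exons 1 and 2: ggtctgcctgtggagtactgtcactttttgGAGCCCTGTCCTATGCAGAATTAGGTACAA
Exons 6 and 7: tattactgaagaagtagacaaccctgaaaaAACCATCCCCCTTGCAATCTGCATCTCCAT

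In the early phase of C57BL/6J, junction reads did not follow the gene reads. There the gene received 411, 562 and 275 reads on d12 and 4728, 4203 and 4267 reads on d15. Over the same libraries, the 2 junctions together received 15, 22 and 16 reads on d12 and 19, 9 and 22 reads on d15. Per junction read of the libraries, the d15 to d12 ratio was 0.85 (95% exact interval 0.566 to 1.28, counting error only), beside a ratio of 9.54 for gene CPM. The junction of exons 1 and 2 alone, which no library held at 0, gave 0.841 (0.484 to 1.46) on 30 and 28 reads.

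AKR/J d12 had fewer junction reads than C57BL/6J d12 (18 against 53, ratio 0.46, exact interval 0.254 to 0.798), although its gene CPM was 6.98 times as high. On d15, C57BL/6J exceeded Cav1-null 1.5-fold in junction reads (0.904 to 2.55) and 11-fold in gene CPM. From d12 to d15 the junction ratio was 2.66 (1.54 to 4.82) in AKR/J, beside a gene CPM ratio of 1.74, and 1.56 (0.814 to 3.06) in Cav1-null, beside 0.942. In both of these strains the gene ratio lay within the interval of the junction ratio. The scalings differ, since junction reads were taken per junction read of the libraries and gene CPM was scaled by TMM. By library size alone mean gene CPM was 70.2 in AKR/J d12, 168 in AKR/J d15 and 12.7 in C57BL/6J d12.

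Junction reads per 1000 gene reads ran from 0.468 to 6.36 in the 13 libraries with high Slc7a11 and from 8.26 to 58.2 in the 14 with low Slc7a11, a split that the gene reads in the denominator bring with them. The lowest value rests on 1 junction read in AKR/J d12 replicate 1, and the next lowest was 1.45, in AKR/J d17 replicate 2. For the members with junctions of their own and none at 0 in sum, the highest library exceeded the lowest 2.06-fold (Asns), 2.31-fold (Atf4), 2.32-fold (Slc3a2) and 2.82-fold (Psat1). Phgdh and Trib3 had libraries at 0, the Ddit3 junctions are in part shared with other genes (35.7-fold), and Chac1 and Sesn2 had no junction in the table. In the early phase of C57BL/6J, 166 genes rose by a log2 change of 2 or more, and 67 of them had at least 30 junction reads. Their median log2 change was 2.25 by gene reads and 2.18 by junction reads, and 5 of the 67 had a junction change under 1. Slc7a11, with -0.23, was the lowest of the 67, a comparison chosen after its values were seen. Predicted genes overlap the span of Slc7a11, and where on the gene the remaining reads fell was not tested. The span given above is that of GENCODE M39, and the gene model behind the gene counts is not given in the sources used here.

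**Figure D3:**
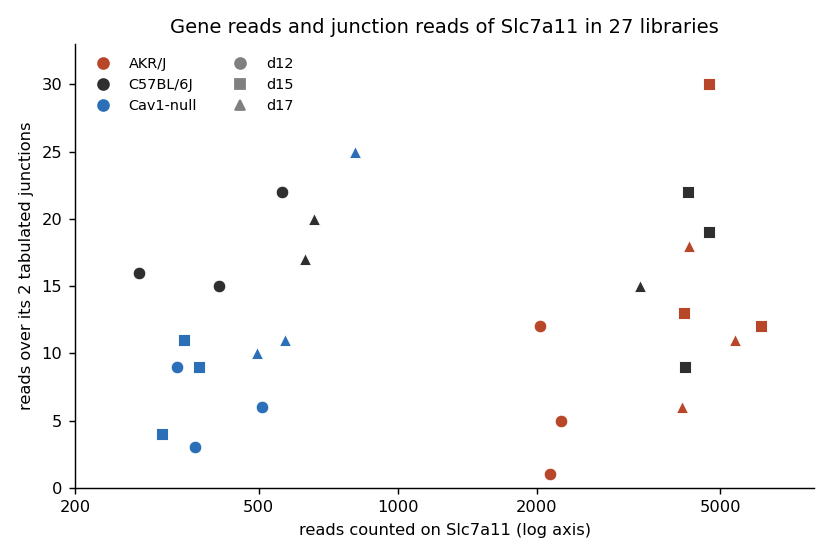
Reads counted on Slc7a11 (log axis) against reads over its 2 tabulated splice junctions in the 27 libraries, with colour for strain and shape for day. Gene reads fall into 2 clusters, while junction reads lie between 1 and 30 in both.

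The genes whose 9 group means were most like those of Slc7a11 were Gm4815 (Pearson r = 0.972), Gm7729 (0.97), Gm3650 (0.94), Gm43713 (0.939) and Gm16589 (0.935), among 16442 genes ranked. Of these, 4 are annotated as pseudogenes, and 4 belong to the 81 strain-separating genes. That overlap is favoured by the choice, since Slc7a11 is itself high in AKR/J and low in Cav1-null, and no conclusion is drawn from it. The group means also hold the d12 and d15 values that chose Slc7a11. Gm4815 measured 10.2, 11.6 and 13.3 CPM in AKR/J d12 and 0.032, 0.0 and 0.0 CPM in C57BL/6J d12. In C57BL/6J it reached 7.34, 8.8 and 15.3 CPM on d15, then 0.0688, 2.35 and 4.11 CPM on d17, and its highest Cav1-null library held 0.078 CPM. The C57BL/6J d17 libraries did not follow Slc7a11 in each of the 5 genes. Gm7729 measured 2.55, 0.0294 and 0.0638 CPM there, with replicate 1 high, and Gm16589 measured 1.24, 1.15 and 1.21 CPM.

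Among the other 9 genes, between 1 and 4 passed the test in each comparison of days. Of the 9, AKR/J had 1 that was higher on d15 and 2 that were lower, where 14.8% and 14.0% of all tested genes were called in these directions. In the late phase of AKR/J, 2 were higher and 2 lower (background 11.6% and 10.4%). C57BL/6J had 1 higher and 1 lower in the early phase (7.08% and 7.8%), then 0 higher and 1 lower in the late phase (7.46% and 5.58%). Cav1-null had 0 higher and 3 lower in the early phase (11.6% and 11.8%), then 1 higher and 2 lower in the late phase (14.5% and 12.8%). The median log2 change of the 9 from d12 to d15 was -0.3 for AKR/J, -0.24 for C57BL/6J and -0.29 for Cav1-null, beside 0.02, -0.04 and -0.01 over all genes. With so few genes, no excess over the background is read from these counts.

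**Figure D4:**
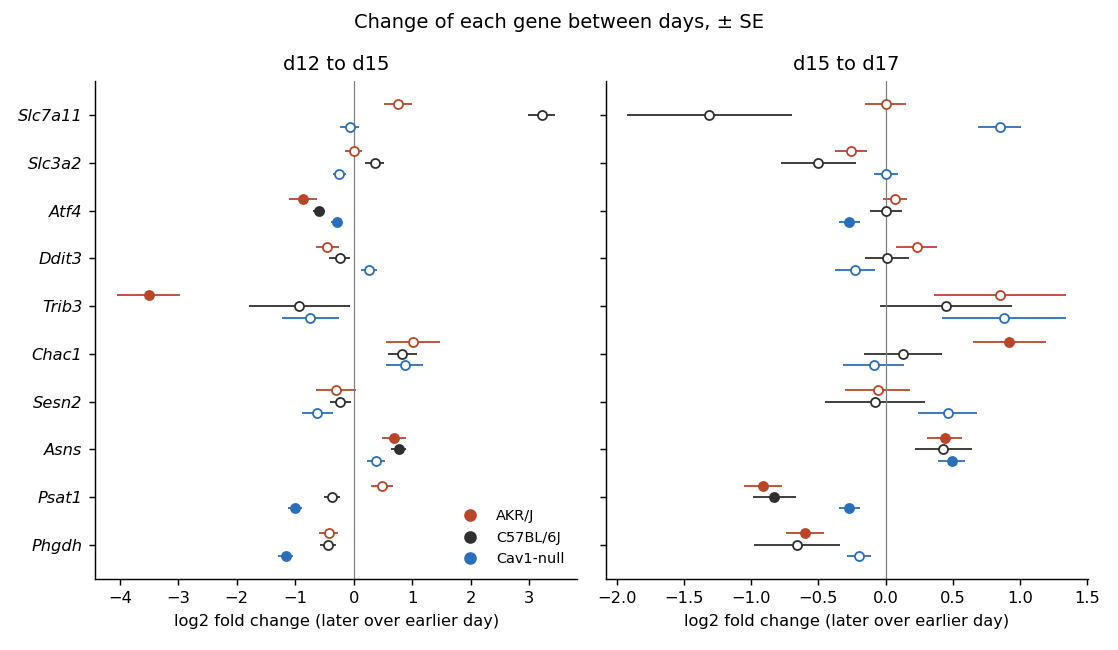
Log2 fold change (later over earlier day) with SE for the 10 genes in the early (left) and late (right) phase of each strain, on axes of different range. Filled points passed edgeR's test at an adjusted p under 0.05, open points did not or, for Slc7a11, carry no test, and Slc7a11 in C57BL/6J (3.22) and Trib3 in AKR/J (-3.51) lie farthest from 0 on the left.

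Slc3a2 (chr19:8684245-8701108), the partner of xCT at the membrane, did not pass the test in any comparison of days with all libraries. It passed without C57BL/6J d12 replicate 2 (early, 0.55), C57BL/6J d17 replicate 1 (late, -0.85) or Cav1-null d12 replicate 3 (early, -0.31). In C57BL/6J it measured 67.6, 91.7 and 57.5 CPM on d12, 97.5, 88.2 and 98.4 CPM on d15 and 95.7, 38.9 and 62.3 CPM on d17. AKR/J libraries lay between 37.6 and 63.0 CPM and Cav1-null libraries between 38.9 and 57.5 CPM. On d15 Slc3a2 was lower in AKR/J than in C57BL/6J (log2 difference -0.75 ± 0.08, adjusted p = 0.00054) and lower in Cav1-null (-1.12 ± 0.08, adjusted p = 1.29e-06). Both calls held when any library was left out, with adjusted p of at most 0.00881 and 1.25e-05. On d15 the AKR/J libraries (48.1 to 63.0 CPM) and the Cav1-null libraries (39.4 to 47.8 CPM) all lay below those of C57BL/6J. Endothelial and astrocyte markers were also lower on d15 in both strains. Endothelial markers summed to 227 to 309 CPM in C57BL/6J, 107 to 130 in AKR/J and 70.7 to 87.5 in Cav1-null. Astrocyte markers summed to 421 to 478, 250 to 367 and 196 to 204 CPM in the same order. Erythroid markers were higher in both strains, at 807 to 1070, 2030 to 3140 and 2910 to 3610 CPM. Choroid plexus markers and those of placenta and yolk sac overlapped C57BL/6J in both. The part of these markers in the d15 strain differences of the 9 genes was not tested.

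Atf4 (chr15:80139372-80141745), the pathway's transcription factor, fell in the early phase of all 3 strains. Its AKR/J libraries held 257, 144 and 248 CPM on d12 and 116, 112 and 135 CPM on d15 (-0.87 ± 0.24, adjusted p = 0.0294). C57BL/6J went from 172, 154 and 174 CPM to 115, 114 and 111 CPM (-0.59 ± 0.10, adjusted p = 0.0202), and Cav1-null from 165, 181 and 138 CPM to 131, 133 and 125 CPM (-0.29 ± 0.09, adjusted p = 0.048). No d15 library overlapped d12 within a strain. The direction held in all fits, but the call in AKR/J passed only with all libraries or without d12 replicate 2, with an adjusted p of up to 0.119, and with library sizes alone it was -0.35 (adjusted p = 0.206). In C57BL/6J it was lost without d12 replicate 1 or without any d15 library (up to 0.127), and in Cav1-null without any library but d12 replicate 3 (up to 0.151) and with 1 model of all libraries (0.23). Atf4 fell again in the late phase of Cav1-null, to 97.1, 99.0 and 120 CPM (-0.27 ± 0.08, adjusted p = 0.0243), a call lost without replicate 1 or 2 of either day (up to 0.104) and with 1 model of all libraries (0.366).

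Ddit3 (chr10:127124268-127132163) encodes CHOP, a factor induced by ATF4 that promotes cell death under lasting stress. It ranged from 8.68 to 16.0 CPM over all libraries and passed no test between days, with log2 changes between -0.45 and 0.26, except in AKR/J early with 1 model of all libraries (-0.41, adjusted p = 0.042). The AKR/J d12 libraries, at 16.0, 14.4 and 15.5 CPM, were above all other d12 libraries. This order rests on TMM scaling, since by library size alone the d12 means were 12.1 CPM in AKR/J, 11.6 CPM in C57BL/6J and 11.5 CPM in Cav1-null, and the log2 difference of AKR/J from C57BL/6J went from 0.49 (adjusted p = 0.134) to 0.06. Ddit3 shares its locus with overlapping annotated genes, and its junctions are listed under up to 3 of them.

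Trib3 (chr2:152179337-152191958), a pseudokinase induced by ATF4 and CHOP that restrains ATF4, had the largest change of the 9. In AKR/J it measured 3.88, 6.19 and 10.9 CPM on d12 and 0.318, 0.873 and 0.656 CPM on d15. All d12 libraries exceeded all d15 libraries, and the change of -3.51 ± 0.54 (adjusted p = 0.00354) held in every fit run, with adjusted p of at most 0.0241. C57BL/6J d12 held 0.769, 0.37 and 3.38 CPM, which overlapped d15 (0.867, 0.29 and 1.29 CPM), and Cav1-null libraries stayed between 0.267 and 1.55 CPM.

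The AKR/J d12 libraries, with high Trib3, were rich in blood transcripts. All 10 erythroid markers were detected in them, summing to between 34100 and 201000 CPM, and to between 2030 and 3140 CPM on d15. Placental and yolk sac markers summed to 59.4 to 2070 CPM in AKR/J d12 and to 4.43 to 7.98 CPM in AKR/J d15. Their part in the AKR/J early changes was not tested.

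**Figure D5:**
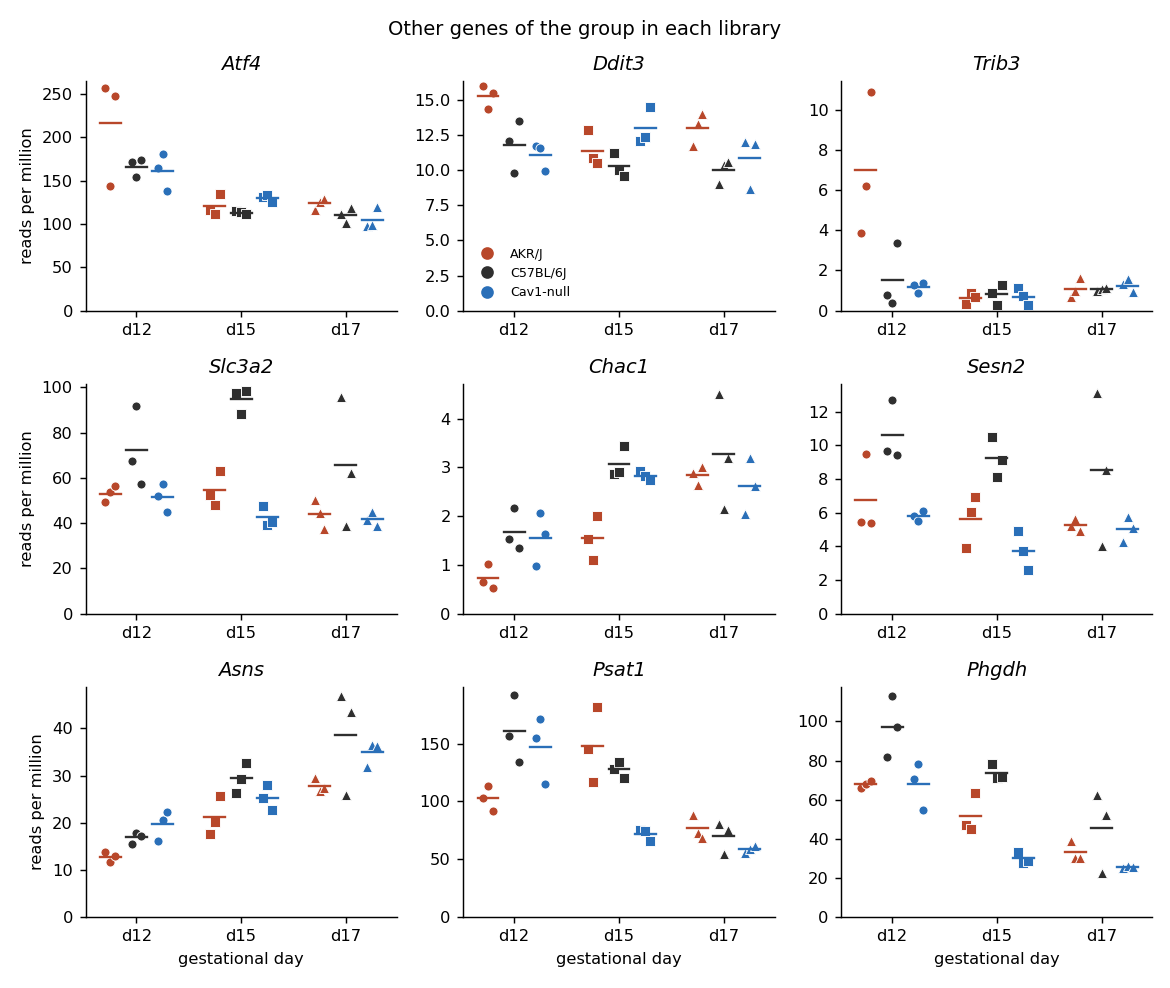
Levels (CPM, linear axes from 0) of the other 9 genes in each library by day and strain, with lines for group means. Trib3 is high in AKR/J d12 (3.88 to 10.9 CPM), the mean of Asns is higher on each later day in each strain, and C57BL/6J d17 replicate 2 is low for Slc3a2 (38.9 CPM) and Phgdh (22.2 CPM).

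Chac1 (chr2:119180757-119184866), which degrades glutathione, and Sesn2 (chr4:132219335-132237815), a leucine sensor that holds back mTORC1, were measured at low levels. Chac1 rose in the late phase of AKR/J, from 1.53, 1.11 and 2.0 CPM to 2.88, 2.63 and 3.01 CPM (0.92 ± 0.27, adjusted p = 0.0411). That call passed only with all libraries or without d15 replicate 3 (adjusted p up to 0.137), and not with 1 model of all libraries (0.061) or no filter (0.0778). In the early phase Chac1 did not pass, with 1.02, 0.83 and 0.87 on the log2 scale in AKR/J, C57BL/6J and Cav1-null (adjusted p = 0.132, 0.0637 and 0.0729), and d15 lay above d12 in each strain. It passed without C57BL/6J d12 replicate 2 (1.04) or Cav1-null d12 replicate 3 (0.93), in AKR/J with 1 model of all libraries (1.07, adjusted p = 0.0109) and in C57BL/6J by DESeq2 (0.87, adjusted p = 0.0193). Sesn2 passed no test between days, except without Cav1-null d15 replicate 1 in the late phase (0.7). On d15 it measured 10.5, 8.1 and 9.1 CPM in C57BL/6J and 4.89, 3.7 and 2.57 CPM in Cav1-null, a difference of -1.27 ± 0.23 (adjusted p = 0.000733) that held without any library.

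Asns (chr6:7671667-7728461) makes asparagine from aspartate and glutamine. Its level was higher on the later day in every comparison, and 4 of the 6 passed. In AKR/J it measured 13.7, 11.7 and 12.9 CPM on d12, 17.6, 20.2 and 25.7 CPM on d15 and 29.4, 26.7 and 27.4 CPM on d17. Both AKR/J steps passed (0.69 ± 0.20, adjusted p = 0.0349, and 0.44 ± 0.13, adjusted p = 0.0474). The first passed only with all libraries or without d12 replicate 2 (up to 0.147), and the second only with all or without d15 replicate 3 (up to 0.145), and among the other settings with DESeq2 alone. C57BL/6J rose from 15.5, 17.9 and 17.1 CPM to 26.4, 29.2 and 32.7 CPM (0.77 ± 0.13, adjusted p = 0.0202), a call lost without d12 replicate 1 or any d15 library (up to 0.122). It then measured 47.0, 25.8 and 43.4 CPM on d17 (0.43 ± 0.21, adjusted p = 0.202), and without d17 replicate 2 the late change was 0.64 (adjusted p = 0.0214). Cav1-null measured 16.2, 20.5 and 22.3 CPM on d12 and 25.3, 28.0 and 22.6 CPM on d15 (0.38, adjusted p = 0.111), which passed without d12 replicate 3 (0.51). It passed in the late phase with 31.9, 36.5 and 36.2 CPM (0.49 ± 0.10, adjusted p = 0.00198), a call that held when any library was left out (at most 0.0127) and not with 1 model of all libraries (0.116).

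Phgdh (chr3:98220484-98255047) and Psat1 (chr19:15882039-15924701) catalyse the first steps of serine synthesis from glycolysis. Psat1 in Cav1-null dropped from 155, 171 and 115 CPM on d12 to 75.3, 74.4 and 65.8 CPM on d15 (-1.01 ± 0.12, adjusted p = 0.00102). Phgdh in Cav1-null went from 70.8, 78.4 and 54.6 CPM to 33.2, 27.7 and 28.7 CPM (-1.16 ± 0.13, adjusted p = 0.000655). No d15 library of either gene overlapped d12, and both calls held when any library was left out (at most 0.0116 and 0.00853). Summed astrocyte markers in Cav1-null also fell, from 266 to 322 CPM on d12 to 196 to 204 CPM on d15. Markers of meninges went from 198 to 1060 CPM to 87.7 to 171 CPM. Erythroid and eye markers fell too, those of placenta and yolk sac rose, and the other lists overlapped. Their part in these falls was not tested.

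In AKR/J and C57BL/6J Psat1 fell in the late phase. Its early change was 0.49 ± 0.19 in AKR/J (adjusted p = 0.0895), where d15 lay above d12, and -0.37 ± 0.13 in C57BL/6J (adjusted p = 0.0962), and the early change in Cav1-null did not pass as different from that in C57BL/6J (-0.67 ± 0.21, adjusted p = 0.228). In the late phase AKR/J went from 145, 117 and 182 CPM on d15 to 88.2, 72.8 and 68.6 CPM on d17 (-0.91 ± 0.14, adjusted p = 0.00405), which held without any library. C57BL/6J went from 128, 134 and 120 CPM to 80.0, 54.5 and 75.6 CPM (-0.83 ± 0.16, adjusted p = 0.0193), a call lost without any d15 library or without d17 replicate 3 (up to 0.0929). Phgdh in AKR/J fell from 46.8, 45.0 and 63.2 CPM to 38.8, 30 and 30.3 CPM (-0.6 ± 0.14, adjusted p = 0.0184), and did not pass without d17 replicate 2 or 3 (up to 0.0971) or with 1 model of all libraries (0.0728). Without AKR/J d12 replicate 2, the early changes of Psat1 (0.53) and Phgdh (-0.46) in AKR/J also passed, as did that of Psat1 in C57BL/6J without d12 replicate 3 (-0.48). With 1 model of all libraries Psat1 passed in AKR/J early (0.54, adjusted p = 0.00943) and Phgdh in C57BL/6J late (-0.73, adjusted p = 0.0198), and Phgdh passed in C57BL/6J early by DESeq2 (-0.4, adjusted p = 0.0433) and with library sizes alone (-0.48, adjusted p = 0.0412). C57BL/6J Phgdh measured 78.4, 71.2 and 71.4 CPM on d15 and 62.4, 22.2 and 52.2 CPM on d17 (-0.66 ± 0.32, adjusted p = 0.191). Psat1 in Cav1-null fell further on d17, to 55.3, 58.6 and 61.7 CPM (-0.27 ± 0.08, adjusted p = 0.0185), a call lost without d15 replicate 1 or 2 or d17 replicate 2 (up to 0.0989) and with 1 model of all libraries (0.415).

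Differences in early change between AKR/J and Cav1-null were called for 4 of the 9 genes (14.7% of all genes). Psat1 had an early change of 0.49 in AKR/J, which did not pass, and of -1.01 in Cav1-null, a difference of 1.48 ± 0.24 (adjusted p = 0.00469) that held without any library. Phgdh (0.71 ± 0.21, adjusted p = 0.0422), Trib3 (-2.8 ± 0.75, adjusted p = 0.0259) and Ddit3 (-0.74 ± 0.23, adjusted p = 0.0476) also differed. Leaving out 1 library ended the call in 8 of 12 fits for Phgdh (adjusted p up to 0.106), in 7 for Trib3 (up to 0.0822) and in 11 for Ddit3 (up to 0.145, kept without AKR/J d12 replicate 2). With library sizes alone the Ddit3 difference was -0.27 (adjusted p = 0.521) and that of Trib3 did not pass (0.0613), and with no filter Ddit3 did not (0.222). Phgdh did not pass with RLE factors (0.0514) or with 1 model of all libraries (0.0746). Atf4 gained a call without AKR/J d12 replicate 2 (-0.8). The Phgdh call was kept without AKR/J d12 replicate 2 or 3, AKR/J d15 replicate 2 or Cav1-null d12 replicate 3, and the Trib3 call without AKR/J d12 replicate 1 or 2, AKR/J d15 replicate 2, Cav1-null d12 replicate 3 or Cav1-null d15 replicate 3.

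No other difference in change was called by edgeR for the 9 genes. In early change, AKR/J against C57BL/6J had 2 of 9 at an unadjusted p under 0.05 and 0 by DESeq2 (0.0711% of all genes called by edgeR), and Cav1-null against C57BL/6J had 3 and 1 (0.00472%). In late change the counts were 1 and 0 for AKR/J against C57BL/6J (0.00468%), 2 and 1 for Cav1-null against C57BL/6J (0.252%) and 4 and 2 for AKR/J against Cav1-null (2.13%). Calls appeared without 1 library in some of these. For AKR/J against C57BL/6J early they were Atf4 and Psat1, without AKR/J d12 replicate 2 (-0.59 and 0.86). Under the other settings that Atf4 difference ran from -0.39 to 0.29, so its sign did not hold. For Cav1-null against C57BL/6J early they were Psat1, Phgdh and Slc3a2, without C57BL/6J d12 replicate 2 (-0.82, -0.88 and -0.84). In late change, Psat1 and Slc3a2 appeared for Cav1-null against C57BL/6J without C57BL/6J d17 replicate 1 (0.71 and 0.91), and Psat1 for AKR/J against Cav1-null without AKR/J d15 replicate 2 (-0.77) or d17 replicate 1 (-0.75).

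In strain comparisons on 1 day, calls among the 9 genes were made on d15. There 4 of the 9 genes were lower in AKR/J than in C57BL/6J and none higher (41.1% of all genes called), and 6 of 9 were called between Cav1-null and C57BL/6J (58.6%). Beside Slc3a2, the AKR/J calls were Chac1 (-0.95 ± 0.24, adjusted p = 0.0175), Asns (-0.43 ± 0.15, adjusted p = 0.048) and Phgdh (-0.47 ± 0.11, adjusted p = 0.0116). Chac1 lost its call without AKR/J d15 replicate 1 or C57BL/6J d15 replicate 2 or 3 (up to 0.0664), Asns without replicate 1 or 2 of AKR/J d15 or 2 or 3 of C57BL/6J d15 (up to 0.146), and Phgdh without AKR/J d15 replicate 1 or C57BL/6J d15 replicate 2 (up to 0.0772). With library sizes alone Asns (-0.27, adjusted p = 0.16) and Phgdh (-0.31, adjusted p = 0.053) did not pass, nor did Phgdh with 1 model of all libraries (0.0763). That model called 5 of the 9 on d12 and 3 on d15 for AKR/J. Sesn2 and Psat1 gained one, without AKR/J d15 replicate 3 (-0.85) and replicate 2 (0.39), Sesn2 also by DESeq2 (-0.68, adjusted p = 0.0131), with RLE factors (0.0497) and with no filter (0.0495), and Psat1 (0.42, adjusted p = 0.0248) and Atf4 (0.3, adjusted p = 0.00569) with library sizes alone.

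In Cav1-null on d15, Slc3a2, Sesn2, Phgdh (-1.26 ± 0.08, adjusted p = 5.27e-07) and Psat1 (-0.79 ± 0.07, adjusted p = 3.35e-06) were lower than in C57BL/6J. Atf4 (0.23 ± 0.05, adjusted p = 0.00263) and Ddit3 (0.38 ± 0.13, adjusted p = 0.0296) were higher. The Ddit3 call was lost without C57BL/6J replicate 2 or 3 or Cav1-null replicate 3 (up to 0.0989), with no filter (0.0771) and with 1 model of all libraries (0.104), and the other 5 held without any library. That of Atf4 was lost with 1 model of all libraries (0.19, adjusted p = 0.351).

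On d12 and d17 none of the 9 was called by edgeR. On d12, AKR/J against C57BL/6J had 2 at an unadjusted p under 0.05 and 1 by DESeq2 (28.6% of all genes called by edgeR), and Cav1-null against C57BL/6J had 3 and 1. For that last comparison edgeR called 0.0% of all genes, although 4309 had an unadjusted p under 0.05 and DESeq2 called 2044. On d17 the counts were 0 and 0 for AKR/J (0.742%) and 1 and 0 for Cav1-null (0.0491%). Without C57BL/6J d17 replicate 2, the library low in Slc3a2 and Phgdh, calls appeared for Sesn2, Phgdh and Slc3a2 against both AKR/J (-0.97, -0.73 and -0.78) and Cav1-null (-1.04, -1.1 and -0.85), and for Asns against AKR/J (-0.64). On d12, calls appeared without AKR/J replicate 2 for Atf4 (0.73), Sesn2 (-0.84) and Psat1 (-0.6), without C57BL/6J replicate 3 for Trib3 in AKR/J (3.69) and, without the same library, for Sesn2 in Cav1-null (-0.93). With all libraries Trib3 on d12 was 2.32 higher in AKR/J (adjusted p = 0.0511), and it passed in 5 of 6 other settings (2.19 to 2.72), all but library sizes alone (1.86, adjusted p = 0.0941). The comparisons with C57BL/6J share its libraries.

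The wider pathway was followed through lists described by their counts and medians. Of 16 kinases and regulators of the response, 2 rose and 4 fell between d12 and d15 in AKR/J, among them Trib2 (1.09 ± 0.21) and Eif4ebp1, a brake on translation induced by ATF4 (-1.9 ± 0.46). None passed in the early phase of C57BL/6J by edgeR, where 5 had an unadjusted p under 0.05 and DESeq2 called 2, and 3 fell in Cav1-null, led by Eif4ebp1 (-1.64 ± 0.37). Of all genes, 14.8% rose and 14.0% fell in AKR/J, 7.08% and 7.8% in C57BL/6J, and 11.6% and 11.8% in Cav1-null. The medians of the list were -0.21, -0.05 and -0.23. From d15 to d17, 0 rose and 2 fell in AKR/J, 1 rose and 1 fell in C57BL/6J (Nupr1 1.44 ± 0.29 and Atf5 -0.72 ± 0.19), and 1 rose and 2 fell in Cav1-null. The late shares of all genes were 11.6% and 10.4% for AKR/J, 7.46% and 5.58% for C57BL/6J, and 14.5% and 12.8% for Cav1-null.

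Of 18 amino acid transporters, 6 rose and 2 fell in AKR/J early, 3 and 1 in C57BL/6J early and 5 and 3 in Cav1-null early, with medians of 0.44, 0.48 and 0.1. All genes that rose in these comparisons made up 14.8%, 7.08% and 11.6%, and those that fell 14.0%, 7.8% and 11.8%. The neuronal glutamate and cysteine carrier Slc1a1 rose most in each of them, by 3.02 ± 0.35, 1.91 ± 0.48 and 1.5 ± 0.13, and the glutamine carrier Slc1a5 fell in all 3 (-1.27 ± 0.22, -0.92 ± 0.14 and -0.74 ± 0.18). Late, 12 rose and 2 fell in Cav1-null (median 0.43), 3 rose and 2 fell in C57BL/6J (-0.31) and 3 rose and 3 fell in AKR/J (-0.05), where 14.5% and 12.8%, 7.46% and 5.58%, and 11.6% and 10.4% of all genes did. Slc7a3, a cationic amino acid carrier, had the largest late rise of the list in each strain, by 2.16 ± 0.27 (AKR/J), 2.25 ± 0.27 (C57BL/6J, the largest) and 1.27 ± 0.21 (Cav1-null).

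Cytosolic aminoacyl-tRNA synthetases, which charge tRNAs and are induced together by ATF4, had 9 of 20 lower and 0 higher in Cav1-null early (median -0.23), where 11.8% of all genes were lower, and Rars was lowest (-0.62 ± 0.10). In AKR/J 2 rose early (14.8% of all genes) and 5 fell late (10.4%), and in C57BL/6J none passed by edgeR in either phase, with 1 and 6 at an unadjusted p under 0.05 and 0 and 4 called by DESeq2. In Cav1-null 2 fell late (12.8%). Of 12 enzymes of serine, proline and one-carbon metabolism, between 4 and 6 fell and at most 1 rose in each comparison of days, where 5.58% to 14.0% of all genes fell, with medians from -0.66 to -0.22. Tyms, which makes thymidylate for DNA synthesis, fell in each of the 6 comparisons of days (log2 changes from -1.27 to -1.05).

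Enzymes of cysteine and glutathione metabolism, the pathway that cystine enters, showed 1 rise and 5 falls of 12 in AKR/J early, 1 and 1 in C57BL/6J early and 2 and 1 in Cav1-null early. Against 12 enzymes stood background shares of 14.8% and 14.0%, 7.08% and 7.8%, and 11.6% and 11.8% of all genes. Gpx4, which removes lipid peroxides, fell in AKR/J (-2.09 ± 0.38) and C57BL/6J (-0.59 ± 0.15), beside the erythroid values given above for AKR/J d12. Erythroid markers in C57BL/6J went from 1910 to 4670 CPM on d12 to 807 to 1070 CPM on d15. They also fell in Cav1-null, from 3980 to 5440 CPM to 2910 to 3610 CPM, and their part was not tested. Cbs, which makes cystathionine, rose in C57BL/6J early (1.55 ± 0.36) and late in all 3 strains (1.35 ± 0.23 in AKR/J, 1.01 ± 0.25 in C57BL/6J, 1.22 ± 0.16 in Cav1-null). Late, 5 rose and 1 fell in AKR/J, 2 rose and 0 fell in C57BL/6J, and 1 rose and 1 fell in Cav1-null (all genes 11.6% and 10.4%, 7.46% and 5.58%, and 14.5% and 12.8%).

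NRF2 targets, the other main group of genes that shares Slc7a11, showed 2 rises and 5 falls of 14 in AKR/J early, 1 and 1 in C57BL/6J and 4 and 3 of 13 tested in Cav1-null, beside 14.8% and 14.0%, 7.08% and 7.8%, and 11.6% and 11.8% of all genes. In AKR/J early the falls were led by Blvrb (-3.47 ± 0.45) and the ferritin heavy chain Fth1 (-2.73 ± 0.54), both abundant in red cells. Me1, which supplies NADPH, rose in all but the AKR/J early phase, by 0.63 to 1.05. The list had medians of -0.66, -0.02 and -0.05 in the early phase. Late, AKR/J had 4 rises and 2 falls of 13 tested (all genes 11.6% and 10.4%), C57BL/6J had 2 and 0 (7.46% and 5.58%), and Cav1-null had 3 and 2 of 13 tested (14.5% and 12.8%). Erythroid markers rose from d15 to d17 in AKR/J (2030 to 3140, then 3400 to 18200 CPM) and C57BL/6J (807 to 1070, then 2450 to 2790 CPM). They fell in Cav1-null (2910 to 3610, then 564 to 2460 CPM), and their part was not tested.

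Chaperones of the endoplasmic reticulum had 0 rises and 6 falls of 14 in Cav1-null early (median -0.37), led by Pdia4 (-0.78 ± 0.09), 0 and 2 in AKR/J, and none by edgeR in C57BL/6J (4 at an unadjusted p under 0.05 and 0 by DESeq2), where falls took 11.8%, 14.0% and 7.8% of all genes. Late, 2 rose and 7 fell in AKR/J and 0 rose and 6 fell in Cav1-null, and none passed by edgeR in C57BL/6J (3 unadjusted, 0 by DESeq2), where falls took 10.4%, 12.8% and 5.58%. Of 9 tested among 11 further ATF4 targets, 2 rose in AKR/J early, 0 in C57BL/6J by edgeR (5 at an unadjusted p under 0.05 and 2 by DESeq2), and 1 rose and 1 fell in Cav1-null (rises over all genes 14.8%, 7.08% and 11.6%). Late, 2 rose in AKR/J, 3 in Cav1-null with Cdkn1a first (1.01 ± 0.14), and 0 in C57BL/6J by edgeR (1 unadjusted and 1 by DESeq2), beside 11.6%, 14.5% and 7.46% of all genes.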

How the data were processed

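Counts deposited by the authors were used as they stand: reads on Ensembl genes and reads over splice junctions, from poly-A libraries of 27 fetal brains. Per the labels and methods, reads were trimmed with cutadapt and fastp and mapped to GRCm39 with STAR. Strand setting and treatment of reads with several matches are not given in the sources used here. Junctions with multiply mapped reads, short overhangs or few reads had been removed, so a junction listed at 0 may have lost its reads.

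The members and gene lists were chosen with earlier results of these data known. All 10 members are named, with, from each list, the called gene with the largest rise or fall, and the 5 genes most like Slc7a11 over 9 group means of log2(CPM + 0.5). Genes named beyond this rule (Slc1a5, Gpx4, Cbs, Me1, Tyms, Fth1) and the genes that separate AKR/J from Cav1-null (4-fold apart in every library, at least 1 CPM by library size alone) were chosen after their values were seen.

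Per comparison, genes were filtered (filterByExpr), scaled by TMM and tested with the quasi-likelihood F-test of edgeR 4.0.16, and p-values were adjusted over all genes (Benjamini-Hochberg, threshold 0.05). Comparisons of days and of strains used 6 libraries, differences in change 12. SE is the log2 change over the root of F. CPM of genes in the text is TMM scaled unless library size alone is named. Alternatives were DESeq2 1.42.0, other scalings, no filter, all libraries in 1 model, a block for replicate number, and fits without 1 library each. Scripts were tested on simulated data. Synthetase symbols were matched by Ensembl ID to GENCODE M39.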

Additional observations from a re-analysis of the deposited data

Results flagged for a closer look

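A difference in early change between AKR/J and Cav1-null was called by edgeR's quasi-likelihood test for 4 of the 9 genes, where 14.7% of all genes were called, always as AKR/J minus Cav1-null on the log2 scale. Psat1 differed by 1.48 (adjusted p = 0.00469), Phgdh by 0.71 (adjusted p = 0.0422), Trib3 by -2.8 (adjusted p = 0.0259) and Ddit3 by -0.74 (adjusted p = 0.0476). The Psat1 call held without any of the 12 libraries. The call was lost in 8 of 12 such fits for Phgdh, in 7 for Trib3 and in 11 for Ddit3. It was also lost for Phgdh with RLE factors (adjusted p = 0.0514) and 1 model of all libraries (0.0746), for Trib3 with library sizes alone (0.0613), and for Ddit3 with library sizes alone (0.521) and no filter (0.222). The AKR/J d12 libraries in these differences are those with erythroid markers at 34100 to 201000 CPM, and their part was not tested.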

How the results depend on the processing

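Counts below are of the 9 genes other than Slc7a11. No change of a member called in the main fit turned its direction under any alternative. Some changes called only under an alternative did turn. In AKR/J early, Ddit3 and Phgdh reached 0.01 and 0.02 under another setting, and the Atf4 difference in early change of AKR/J against C57BL/6J reached 0.29. With all 27 libraries in 1 model, the count moved from 3 to 6 in the AKR/J early phase, 4 to 1 in AKR/J late, 1 to 2 in C57BL/6J late, 3 to 0 in Cav1-null late, 0 to 1 in AKR/J against C57BL/6J early change and 0 to 5 in AKR/J against C57BL/6J on d12. DESeq2 gave 4 in place of 2 in C57BL/6J early, 2 in place of 0 in AKR/J against Cav1-null late change, and 1 in place of 0 in Cav1-null against C57BL/6J early change, late change and d12 and in AKR/J against C57BL/6J on d12. Library sizes alone gave 2 in place of 4 in AKR/J against Cav1-null early change and 1 in place of 0 in late change. No filter gave 2 in place of 4 in AKR/J late and 1 in place of 0 in AKR/J against Cav1-null late change and in AKR/J against C57BL/6J on d12, where RLE factors also gave 1. The cause was not tested.

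Replicate numbers did not pair the libraries, since correlations of same-numbered deviations ran from -0.479 to 0.402 and in no comparison exceeded 0.1 for all pairs. The replicate block gave 2 in place of 4 in AKR/J late, 0 in place of 2 in C57BL/6J early (and 0 of all genes, in place of 2850), 1 in place of 4 in AKR/J against Cav1-null early change and 2 in place of 0 in AKR/J against C57BL/6J on d12. Under the block the calls lost were Atf4 in C57BL/6J early (adjusted p = 0.0694) and Cav1-null early (0.0778), Asns in AKR/J early (0.082), C57BL/6J early (0.0677) and AKR/J late (0.0633), Chac1 in AKR/J late (0.0626), Ddit3 in Cav1-null against C57BL/6J on d15 (0.0591), and Trib3 (0.0529), Ddit3 (0.127) and Phgdh (0.0885) in AKR/J against Cav1-null early change. Slc7a11 on d17 gained one for AKR/J against C57BL/6J (2.15, adjusted p = 0.0436).

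Leaving out 1 library, counts ran from 1 to 5 in AKR/J early, 1 to 4 in AKR/J late, 0 to 4 in C57BL/6J early, 0 to 2 in C57BL/6J late, 2 to 6 in Cav1-null early and 1 to 3 in Cav1-null late. They ran from 0 to 2, 0 to 3 and 1 to 5 in the early change of AKR/J against C57BL/6J, Cav1-null against C57BL/6J and AKR/J against Cav1-null, and from 0 to 2 and 0 to 1 in the late change of Cav1-null against C57BL/6J and AKR/J against Cav1-null. Between strains they ran from 0 to 3, 1 to 5 and 0 to 4 for AKR/J on d12, d15 and d17 and from 0 to 1 and 0 to 3 for Cav1-null on d12 and d17. With 3 libraries a group, and 1 to 30 junction reads of Slc7a11 per library, small changes could not be resolved.

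Over all genes, edgeR's calls moved by over 1.5 times under some settings. With all 27 libraries in 1 model they went from 5758 to 9568 in AKR/J early, 4409 to 2366 in AKR/J late, 2594 to 4565 in C57BL/6J late, 4666 to 3056 in Cav1-null early, 5530 to 829 in Cav1-null late, and for AKR/J against C57BL/6J from 5529 to 10960 on d12, 8089 to 5233 on d15 and 150 to 838 on d17. DESeq2 called 4893 in place of 2850 in C57BL/6J early, 4581 in place of 2594 in C57BL/6J late, 1330 in place of 150 for AKR/J and 48 in place of 10 for Cav1-null on d17. For differences in change from C57BL/6J, DESeq2 called 1019 in place of 15 (AKR/J early), 45 in place of 1 (AKR/J late), 517 in place of 1 (Cav1-null early) and 1436 in place of 54 (Cav1-null late), and for AKR/J against Cav1-null late 1825 in place of 462. Without a filter the same 5 counts were 544, 4, 46, 1010 and 1997, and in 1 model of all libraries 1660, 0, 0, 4 and 0. No filter also gave 905 (AKR/J) and 30 (Cav1-null) on d17 and 750 in place of 0 for Cav1-null on d12, where 1 model of all libraries gave 1734. Library sizes alone gave 107 and 131 for the AKR/J early and Cav1-null late differences. The replicate block gave 5, 2 and 64 for the AKR/J early and late differences from C57BL/6J and the AKR/J late difference from Cav1-null, 1662 in place of 3191 for the early one, and 638 (AKR/J) and 3 (Cav1-null) on d17.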

Other observations

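The lists of the wider pathway were set against C57BL/6J on d15, where edgeR called 41.1% of all genes for AKR/J and 58.6% for Cav1-null in either direction. Of 18 amino acid transporters, 11 were lower and 0 higher in AKR/J (median log2 difference -0.7), and 13 lower and 0 higher in Cav1-null (-0.55). Of 20 aminoacyl-tRNA synthetases, 10 were lower and 3 higher in AKR/J (-0.26), and 17 lower and 2 higher in Cav1-null (-0.46). The other lists in AKR/J had 4 higher and 5 lower of 12 cysteine and glutathione enzymes, 3 and 6 of 16 regulators, 2 and 5 of 14 NRF2 targets, 1 and 3 of 14 chaperones, 3 and 5 of 12 serine and one-carbon enzymes and 0 and 4 of 9 further ATF4 targets. In Cav1-null the same lists had 3 higher and 6 lower, 2 and 9, 3 and 6 (of 13 tested), 3 and 7, 2 and 7, and 0 and 6. The medians over all genes tested were 0.06 and 0.03. Summed neural markers were 7440 to 8260 CPM in C57BL/6J d15, 4140 to 6380 CPM in AKR/J d15 and 5590 to 5640 CPM in Cav1-null d15. Endothelial markers were 227 to 309, 107 to 130 and 70.7 to 87.5 CPM in the same groups, and astrocyte markers 421 to 478, 250 to 367 and 196 to 204 CPM. Erythroid markers went the other way, at 807 to 1070, 2030 to 3140 and 2910 to 3610 CPM. The part of these cell types in these differences was not tested.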
